A study of Mus musculus with 24 samples.

Results

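The coagulation, fibrinolysis and complement proteins of blood plasma are made largely by hepatocytes, and 38 of their genes were named and looked up by symbol in the count table of the series. Of these, 37 were found among the 24015 rows of the table, 21 of coagulation and fibrinolysis and 16 of complement. The symbol C5 was not a row, and RefSeq lists it as a synonym of Hc, whose row is given apart and enters no count. All 37 passed the filter on low counts in every comparison.

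The study asked how formalin-fixed, paraffin-embedded (FFPE) tissue compares with frozen tissue for RNA sequencing of a chemical exposure. The animals were female B6C3F1 mice (a hybrid of inbred strains, with no added allele), bought at 5 to 6 weeks of age. They were gavaged with furan, 8 mg/kg daily for 21 days with corn oil as the vehicle, or with the vehicle alone. Furan is formed in heated food and is toxic to the rodent liver. Livers were taken 4 hours after the last dose and each was divided into 3 pieces, of which one was snap frozen, one was fixed in formalin for 18 hours (FFPE 18 h) and one for 3 weeks (FFPE 3-week). The 4 furan animals (41, 42, 43 and 44) and the 4 control animals (2, 3, 4 and 6) gave 6 groups of 4 libraries, 24 in all, from total RNA depleted of ribosomal RNA. Values of single libraries are listed in this order of animals throughout. Frozen RNA had integrity numbers above 8.9 and fixed RNA had 1.3 to 2.4, and the extraction kit and the amount of tissue differed too, so preservation, kit, input and piece of liver cannot be told apart.

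In the coagulation cascade, proteases circulate as inactive zymogens and activate each other in turn. The extrinsic branch starts with factor VII, the intrinsic branch with the contact factors, and both meet at factor X, which with factor V converts prothrombin to thrombin; thrombin then cuts fibrinogen into fibrin. Antithrombin, heparin cofactor II and the protein C pathway restrain the cascade, and plasmin dissolves the clot. Complement is a parallel protease cascade of innate immunity. Its classical, lectin and alternative pathways meet at C3, and the terminal components assemble into a pore in the target membrane. Liver is the main source of most of these proteins in plasma.

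Levels are given as counts-per-million (CPM) scaled by the trimmed mean of M-values (TMM) over all 24 libraries, and levels of different genes are compared per kilobase of exon (CPM per kb). The range over the 37 genes in frozen liver was wide. The highest mean over the 8 frozen libraries was 2870.1 CPM per kb for C3, the hub of complement, followed by the fibrinogen chains Fgg at 2583, Fga at 2371 and Fgb at 1644 CPM per kb. Prothrombin (F2) had 980.2, plasminogen (Plg) 944 and kininogen (Kng1) 845 CPM per kb. Proteases of the contact, tissue factor, C1 and lectin steps were far lower, with 136 for F12, 84.5 for Klkb1, 57.7 for F7, 55.8 for F11, 48.99 for C1ra, 45.2 for Masp2 and 17.8 CPM per kb for Masp1, and the lowest was 11.05 CPM per kb for the terminal component C6. Per group, C3 averaged 2520.1 ± 241 CPM per kb in furan livers and 3220.1 ± 572 in control livers, and C6 averaged 11.1 ± 1.25 and 10.96 ± 2.10 CPM per kb in the same order (SD, n = 4 each).

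**Figure D1:**
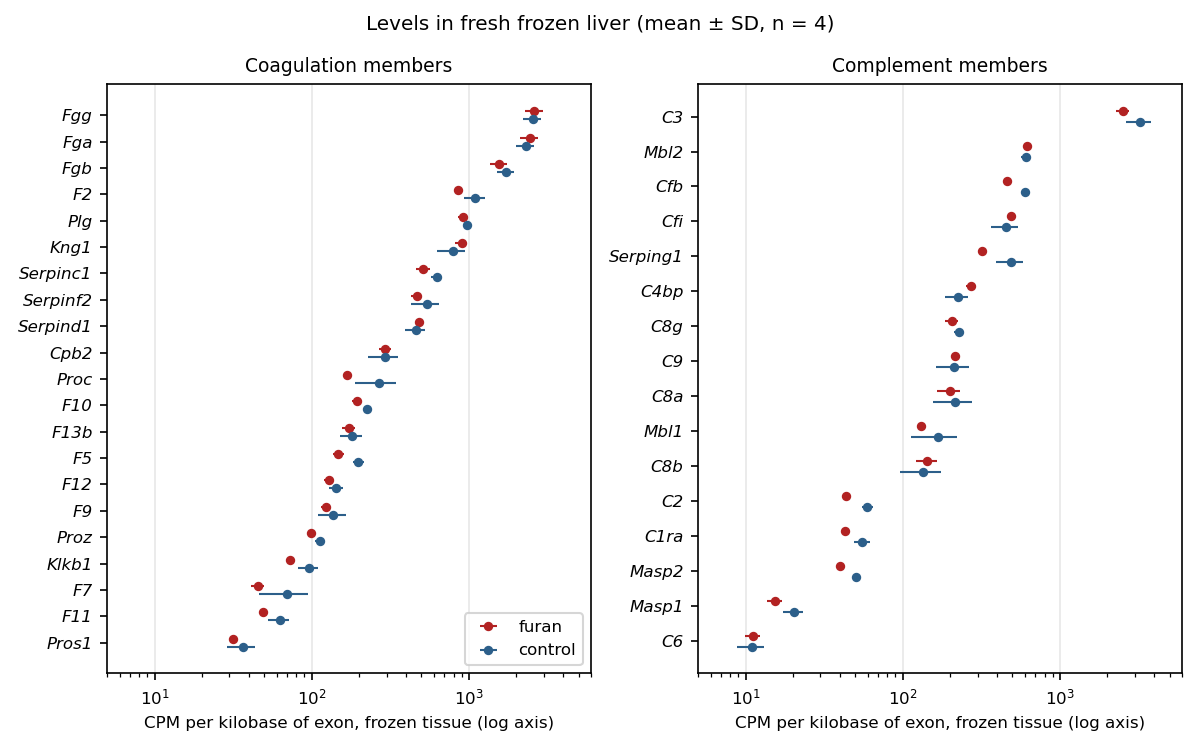
Level of each gene in frozen liver in CPM per kilobase of exon on a log axis, as the mean and SD of 4 furan (red) and 4 control (blue) livers, with coagulation genes at left and complement genes at right. C3 and the 3 fibrinogen chains stand at the top, and C6 at 11.05 CPM per kb at the bottom.

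Total counts per library ran from 37.98 to 49.3 megacounts in frozen tissue, 22.9 to 28.1 megacounts in FFPE 18 h tissue and 5.56 to 11.02 megacounts in FFPE 3-week tissue. The 37 genes took 4.34 to 5.05% of counts in frozen furan livers, against 4.66 to 5.42% in frozen control livers, and down to 2.10 to 2.57% and 2.53 to 2.74% in FFPE 3-week tissue. All 12 hepatocyte markers were detected in each kind of piece, and their summed level in frozen tissue was 233603 to 252503 CPM in furan livers and 223987 to 252540.0 CPM in control livers. One library stood apart. The frozen piece of control animal 3 had a mean correlation of 0.961 with the other frozen controls, which had 0.977 to 0.980, and its value lay outside the range of the other 3 controls for 26 of the 37 genes, above it for 12 and below it for 14. In the FFPE 18 h piece of the same liver the counts were 6 above and 3 below, and in the FFPE 3-week piece 3 above and 13 below. These counts were not made for the other controls or over all genes, so they do not by themselves set a library apart. Frozen log2 fold changes of genes given library by library are also given without the frozen library of control animal 3.

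With furan, the change among these genes was toward lower levels. In FFPE 18 h tissue 11 of 21 coagulation genes and 7 of 16 complement genes fell and 1 complement gene, C4bp, rose (edgeR quasi-likelihood test, Benjamini-Hochberg adjusted p below 0.05, 4 against 4 livers). Of all 14204 genes tested there, 15.5% were called, 7.72% as lower and 7.82% as higher. In frozen tissue 0 coagulation genes and 2 complement genes fell, where 2.78% of 14122 genes were called, 1.2% lower and 1.57% higher; in FFPE 3-week tissue 2 coagulation and 3 complement genes fell, where 2.58% of 12983 genes were called, 1.51% lower and 1.07% higher. At an unadjusted p below 0.05, 14 of the 37 genes were lower and 0 higher in frozen tissue, 7 of them coagulation genes, against 18.4% of all genes in either direction. Median log2 fold changes of the coagulation genes were -0.18 in frozen, -0.22 in FFPE 18 h and -0.21 in FFPE 3-week tissue, and those of the complement genes were -0.25, -0.21 and -0.34, beside -0.01, -0.00 and 0.01 over all genes tested. The 3 comparisons use pieces of the same 8 livers, so they are not independent of each other. The log2 fold change was below 0 in all 3 pieces for 26 genes, above 0 in all 3 for 7 and mixed for 4. Signs were not counted over all genes, so these numbers do not show a pattern particular to the 37.

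Calls in frozen tissue depended on the library of control animal 3. Without it 11 genes were called, all lower (F5, F7, F11, Proc, Pros1, Klkb1, C2, Cfb, Masp2, C1ra and Serping1), where 3.6% of all genes were lower; without any other single library 0 of the 37 were called. DESeq2 on all 8 frozen libraries called 9, all lower, 4 of coagulation and 5 of complement, where 3.73% of all genes were lower. A fit of all 24 libraries together, which shares 1 estimate of spread, called 9 genes in frozen, 4 in FFPE 18 h (F5, F7, Proc and Cfb) and 10 in FFPE 3-week tissue, all lower, where 1.91%, 1.13% and 5.55% of all genes were lower. In FFPE 18 h tissue 15 of the 19 calls were kept in all 8 omissions of 1 library. In bulk tissue, fewer hepatocytes and less RNA per hepatocyte cannot be told apart.

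**Figure D2:**
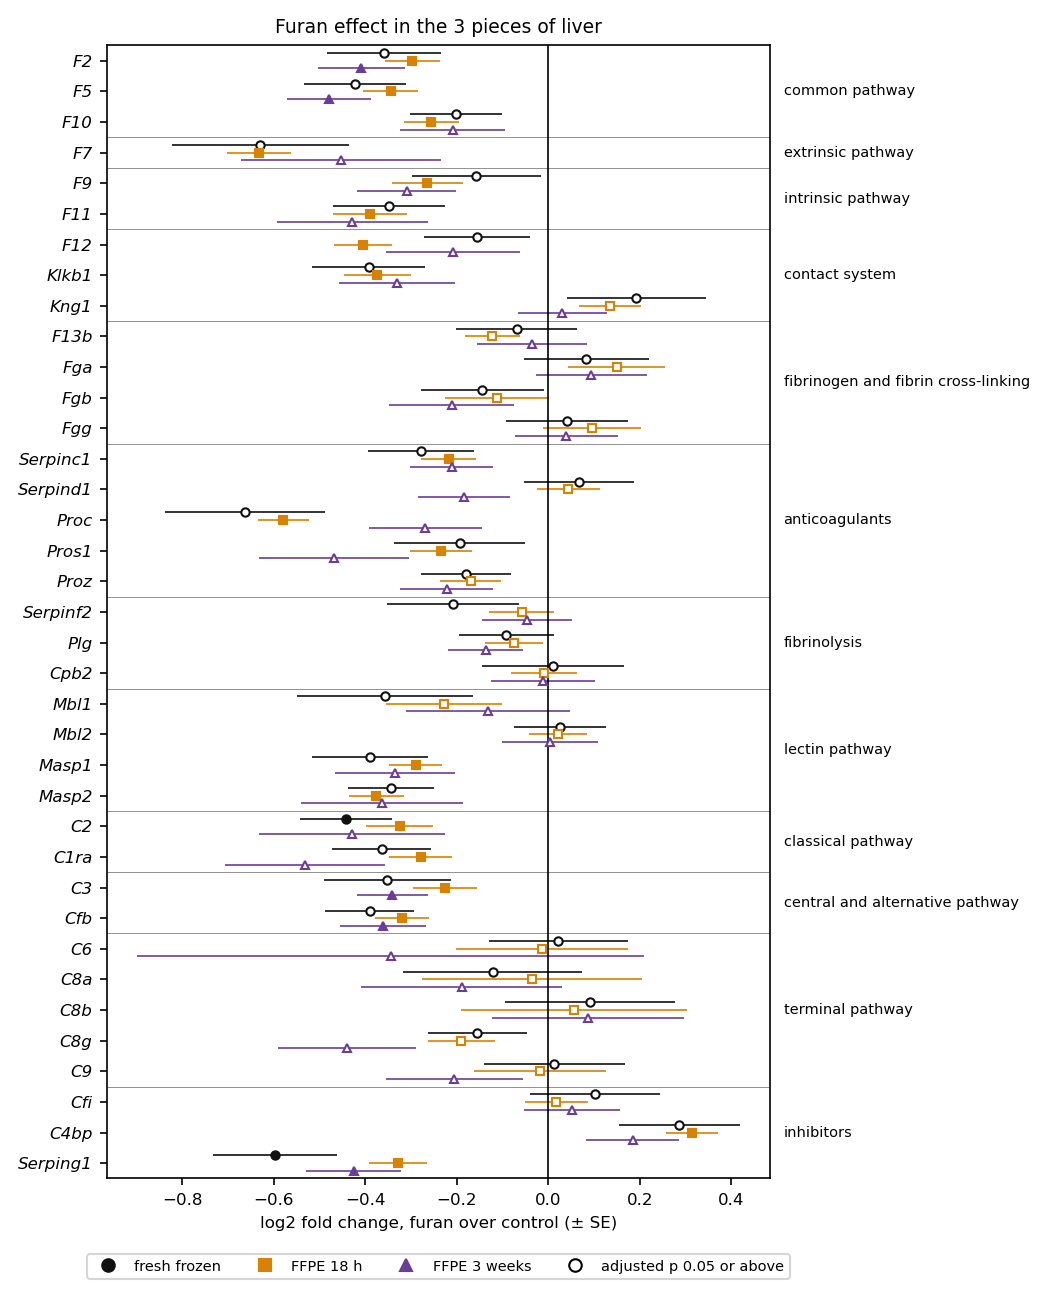
Log2 fold change of furan over control with its standard error for the 37 genes, grouped by role, in frozen (circles), FFPE 18 h (squares) and FFPE 3-week tissue (triangles). Filled symbols passed the adjusted p threshold; Serping1 is the 1 gene filled in all 3 pieces, and the terminal pathway and fibrinogen rows hold none.

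The genes of the extrinsic and common pathways fell in FFPE 18 h tissue, 4 of 4. F7 encodes factor VII, the protease that tissue factor activates at a wound. F7 had 86.0, 93.3, 83.1 and 74.2 CPM in frozen pieces of furan livers, against 109.9, 197, 105 and 110.0 CPM in those of control livers. F7 in FFPE 18 h pieces stood at 54.8, 56.2, 49.9 and 48.6 CPM with furan and at 77.8, 85.7, 77.5 and 85.8 CPM in controls. F7 in FFPE 3-week pieces stood at 30.3, 42.9, 28.4 and 25.7 CPM with furan and at 31.4, 50.9, 50.4 and 43.2 CPM in controls. F7 values of all furan livers lay below those of all control livers in frozen and FFPE 18 h pieces, and overlapped with them in FFPE 3-week pieces. F7 log2 fold changes were -0.63 ± 0.19 (adjusted p = 0.117) in frozen, -0.63 ± 0.07 (adjusted p = 1.36e-05) in FFPE 18 h and -0.45 ± 0.22 (adjusted p = 0.395) in FFPE 3-week tissue. Without control animal 3 the frozen F7 log2 fold change was -0.36 ± 0.09 (adjusted p = 0.0247). F5 encodes factor V, the cofactor of factor Xa, and F2 encodes prothrombin. F5 had 1011, 1176, 1036 and 1173 CPM in frozen pieces of furan livers, against 1552, 1306, 1471 and 1566 CPM in those of control livers. F5 in FFPE 18 h pieces stood at 1220.4, 1271, 1227 and 1187 CPM with furan and at 1620.3, 1527, 1582 and 1542 CPM in controls. F5 in FFPE 3-week pieces stood at 935, 793, 984 and 769 CPM with furan and at 1253, 1154, 1212 and 1288 CPM in controls. F5 values of all furan livers lay below those of all control livers in the 3 kinds of piece. F5 log2 fold changes were -0.42 ± 0.11 (adjusted p = 0.0724) in frozen, -0.34 ± 0.06 (adjusted p = 0.00073) in FFPE 18 h and -0.48 ± 0.09 (adjusted p = 0.00227) in FFPE 3-week tissue. Without control animal 3 the frozen F5 value was -0.48 ± 0.10 (adjusted p = 0.00787).

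F2 had 1798, 1675, 1736 and 1614 CPM in frozen pieces of furan livers, against 2023, 2694, 2033 and 2015 CPM in those of control livers. F2 in FFPE 18 h pieces stood at 1096, 1106, 1037 and 1022 CPM with furan and at 1321, 1298, 1356 and 1297 CPM in controls. F2 in FFPE 3-week pieces stood at 635, 590.1, 627 and 505 CPM with furan and at 759.6, 751, 853 and 798 CPM in controls. F2 values of all furan livers lay below those of all control livers in the 3 kinds of piece. F2 log2 fold changes were -0.36 ± 0.12 (adjusted p = 0.155) in frozen, -0.30 ± 0.06 (adjusted p = 0.00237) in FFPE 18 h and -0.41 ± 0.09 (adjusted p = 0.0112) in FFPE 3-week tissue. F2 in frozen tissue was -0.25 ± 0.10 without control animal 3 (adjusted p = 0.149). For F2 in FFPE 3-week tissue, 6 of 8 omissions of 1 library kept the call (lost without control 4 or furan 44; adjusted p 0.0164 to 0.0637). F10, the protease of the prothrombinase complex and the chromosomal neighbour of F7, averaged 295 ± 17.6 CPM with furan and 354 ± 5.44 CPM in controls in FFPE 18 h tissue (SD, n = 4 each), a log2 fold change of -0.26 ± 0.06 (adjusted p = 0.00766). F10 was not called in frozen tissue at -0.20 ± 0.10 or in FFPE 3-week tissue at -0.21 ± 0.12.

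Among the intrinsic and contact factors, F9, F11, F12 and Klkb1 fell in FFPE 18 h tissue and Kng1 was not called. F11 encodes factor XI and lies next to Klkb1, which encodes plasma prekallikrein, a protease of related sequence; whether reads were shared between them is not given in the sources used here. F11 had 111, 103, 119 and 107 CPM in frozen pieces of furan livers, against 170.1, 129, 120.1 and 141 CPM in those of control livers. F11 in FFPE 18 h pieces stood at 89.5, 88.6, 101 and 86.5 CPM with furan and at 134, 131, 104 and 113 CPM in controls. F11 in FFPE 3-week pieces stood at 61.1, 62.6, 87.5 and 54.3 CPM with furan and at 117, 79.0, 78.5 and 86.7 CPM in controls. F11 values of all furan livers lay below those of all control livers in frozen and FFPE 18 h pieces, and overlapped with them in FFPE 3-week pieces. F11 log2 fold changes were -0.35 ± 0.12 (adjusted p = 0.158) in frozen, -0.39 ± 0.08 (adjusted p = 0.00337) in FFPE 18 h and -0.43 ± 0.17 (adjusted p = 0.209) in FFPE 3-week tissue. F11 in frozen tissue was -0.39 ± 0.11 without control animal 3 (adjusted p = 0.0332). Klkb1 had 418, 362, 374 and 379 CPM in frozen pieces of furan livers, against 603, 423, 486 and 503 CPM in those of control livers. Klkb1 in FFPE 18 h pieces stood at 284, 271, 252 and 226 CPM with furan and at 367, 340.5, 322 and 319 CPM in controls. Klkb1 in FFPE 3-week pieces stood at 214, 162, 228 and 146 CPM with furan and at 231, 231, 274 and 218 CPM in controls. Klkb1 values of all furan livers lay below those of all control livers in frozen and FFPE 18 h pieces, and overlapped with them in FFPE 3-week pieces. Klkb1 log2 fold changes were -0.39 ± 0.12 (adjusted p = 0.123) in frozen, -0.37 ± 0.07 (adjusted p = 0.00209) in FFPE 18 h and -0.33 ± 0.13 (adjusted p = 0.204) in FFPE 3-week tissue. Klkb1 in frozen tissue was -0.47 ± 0.10 without control animal 3 (adjusted p = 0.00952).

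F12 encodes factor XII, which starts the contact system by autoactivation. F12 had 257, 257, 268 and 226 CPM in frozen pieces of furan livers, against 256, 303, 310.2 and 255 CPM in those of control livers. F12 in FFPE 18 h pieces stood at 171, 155, 161 and 161 CPM with furan and at 202, 211, 239 and 211 CPM in controls. F12 in FFPE 3-week pieces stood at 76.4, 84.3, 109 and 115 CPM with furan and at 96.4, 101, 132 and 122 CPM in controls. F12 values of all furan livers lay below those of all control livers in FFPE 18 h pieces, and overlapped with them in frozen and FFPE 3-week pieces. F12 log2 fold changes were -0.16 ± 0.12 (adjusted p = 0.517) in frozen, -0.41 ± 0.06 (adjusted p = 0.000368) in FFPE 18 h and -0.21 ± 0.15 (adjusted p = 0.655) in FFPE 3-week tissue. F12 in frozen tissue was -0.12 ± 0.10 without control animal 3 (adjusted p = 0.563). The F12 furan effect in FFPE 18 h minus that in frozen tissue was -0.23 ± 0.13 (adjusted p = 1), so the pieces were not shown to differ. F9, whose loss causes haemophilia B, averaged 208 ± 20.6 CPM with furan and 252 ± 21.7 CPM in controls in FFPE 18 h tissue (SD, n = 4 each), with a log2 fold change of -0.26 ± 0.08 (adjusted p = 0.027). For F9, 3 of 8 omissions of 1 library kept the call (lost without control 2, control 3, furan 41, furan 43 or furan 44; adjusted p 0.00642 to 0.0927).

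Kng1 encodes kininogen, the cofactor of the contact system and the source of bradykinin. The mouse has a close copy, Kng2, and how shared reads were assigned is not given in the sources used here. Kng1 had 3164, 2740.2, 2566 and 2746 CPM in frozen pieces of furan livers, against 2901, 1766, 2533 and 2625 CPM in those of control livers. Kng1 in FFPE 18 h pieces stood at 1454, 1516, 1303 and 1281 CPM with furan and at 1299, 1302, 1262 and 1230.1 CPM in controls. Kng1 in FFPE 3-week pieces stood at 726, 688, 761 and 550.2 CPM with furan and at 691, 660.0, 672 and 675 CPM in controls. Kng1 values of furan and control livers overlapped in every piece. Kng1 log2 fold changes were 0.19 ± 0.15 (adjusted p = 0.534) in frozen, 0.13 ± 0.07 (adjusted p = 0.196) in FFPE 18 h and 0.03 ± 0.10 (adjusted p = 0.965) in FFPE 3-week tissue. Kng1 in frozen tissue was 0.063 ± 0.11 without control animal 3 (adjusted p = 0.798).

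Fibrinogen, the substrate of the whole cascade, did not pass the test in any piece, and neither did F13b, the carrier subunit of the fibrin cross-linking factor XIII. The promoters of Fga and Fgb are shown because these chains, neighbours on chromosome 3, passed no furan test and are the most abundant coagulation products with Fgg. They are 250 bases before the RefSeq start on GRCm38.p6, 5' to 3' on the gene's strand; capitals mark matches on either strand to TTGCNNAA (C/EBP) and TTCNNNGAA (STAT3).
Fga, chr3:83025903-83026152, plus strand: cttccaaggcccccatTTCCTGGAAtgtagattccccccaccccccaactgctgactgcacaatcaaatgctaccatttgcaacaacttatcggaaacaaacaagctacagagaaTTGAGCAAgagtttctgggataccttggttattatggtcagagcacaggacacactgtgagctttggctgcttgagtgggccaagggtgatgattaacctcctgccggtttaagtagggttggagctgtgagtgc
Fgb, chr3:83049864-83050113, minus strand: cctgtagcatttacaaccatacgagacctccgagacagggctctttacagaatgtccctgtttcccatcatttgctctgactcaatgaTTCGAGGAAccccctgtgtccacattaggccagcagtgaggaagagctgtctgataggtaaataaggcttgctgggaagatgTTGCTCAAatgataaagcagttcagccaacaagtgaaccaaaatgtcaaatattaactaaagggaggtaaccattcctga

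Both promoters hold 1 match to each of these motifs, with no overlap between them. The promoter of the remaining chain, Fgg, held 0 matches to either motif. Of the 37 genes, 29 had a RefSeq promoter entry; 7 of 29 held TTGCNNAA, against 9.56% of all 32851 promoters of this length, and 6 held TTCNNNGAA, against 7.02%. The HNF4A motif CAAAGTC was in 0 of 29, against 3.84% of all promoters, and the NRF2 motif TGACNNNGC was in 2, against 10.2%. A match is a description of letters and not a binding site.

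Fga had 7890.4, 8277, 7085 and 6094 CPM in frozen pieces of furan livers, against 8355, 6470.2, 6499.9 and 6432 CPM in those of control livers. Fga in FFPE 18 h pieces stood at 4334, 5052, 4030.5 and 3378 CPM with furan and at 4151, 4017, 3669.8 and 3405 CPM in controls. Fga in FFPE 3-week pieces stood at 2712, 3032, 2959 and 1857 CPM with furan and at 2731, 2529, 2510.5 and 2239 CPM in controls. Fga values of furan and control livers overlapped in every piece. Fga log2 fold changes were 0.08 ± 0.14 (adjusted p = 0.782) in frozen, 0.15 ± 0.11 (adjusted p = 0.396) in FFPE 18 h and 0.09 ± 0.12 (adjusted p = 0.88) in FFPE 3-week tissue. Fga in frozen tissue was 0.05 ± 0.13 without control animal 3 (adjusted p = 0.872). Fgb had 6666, 6349.5, 5875 and 4892 CPM in frozen pieces of furan livers, against 7578, 6907, 6083 and 5754 CPM in those of control livers. Fgb in FFPE 18 h pieces stood at 2949.9, 3212, 2751 and 2151 CPM with furan and at 3271, 3232, 2939 and 2594 CPM in controls. Fgb in FFPE 3-week pieces stood at 1667, 1685, 1754 and 1065 CPM with furan and at 2054, 1817, 1831 and 1524 CPM in controls. Fgb values of furan and control livers overlapped in every piece. Fgb log2 fold changes were -0.14 ± 0.13 (adjusted p = 0.608) in frozen, -0.11 ± 0.11 (adjusted p = 0.578) in FFPE 18 h and -0.21 ± 0.14 (adjusted p = 0.619) in FFPE 3-week tissue. Fgb in frozen tissue was -0.12 ± 0.13 without control animal 3 (adjusted p = 0.652).

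Fgg had 6169.9, 5914, 5206 and 4625 CPM in frozen pieces of furan livers, against 6386, 5029, 5044 and 4877 CPM in those of control livers. Fgg in FFPE 18 h pieces stood at 2724, 3086, 2461 and 2065 CPM with furan and at 2623, 2555, 2422 and 2140.1 CPM in controls. Fgg in FFPE 3-week pieces stood at 1719, 1702, 1720.2 and 1113 CPM with furan and at 1666, 1559, 1577 and 1354 CPM in controls. Fgg values of furan and control livers overlapped in every piece. Fgg log2 fold changes were 0.04 ± 0.13 (adjusted p = 0.899) in frozen, 0.10 ± 0.11 (adjusted p = 0.621) in FFPE 18 h and 0.04 ± 0.11 (adjusted p = 0.959) in FFPE 3-week tissue. Fgg in frozen tissue was 0.013 ± 0.13 without control animal 3 (adjusted p = 0.971). Animal 44 had the lowest Fgg value of the furan livers in all 3 pieces, and animal 2 was highest among the frozen controls. The sign of the small Fgg change turned when single libraries were left out. F13b was -0.07 ± 0.13, -0.12 ± 0.06 and -0.04 ± 0.12 in frozen, FFPE 18 h and FFPE 3-week tissue on the log2 scale.

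Among the anticoagulants, Proc, Serpinc1 and Pros1 fell in FFPE 18 h tissue and Serpind1 and Proz were not called. Proc encodes protein C, the zymogen of the protease that inactivates factors Va and VIIIa. Proc had 284, 288, 283 and 249 CPM in frozen pieces of furan livers, against 360.3, 629, 391 and 369 CPM in those of control livers. Proc in FFPE 18 h pieces stood at 172, 163, 174 and 169 CPM with furan and at 246, 254, 259.6 and 259.6 CPM in controls. Proc in FFPE 3-week pieces stood at 109, 117, 115 and 99.1 CPM with furan and at 122, 129, 149 and 135 CPM in controls. Proc values of all furan livers lay below those of all control livers in the 3 kinds of piece. Proc log2 fold changes were -0.66 ± 0.17 (adjusted p = 0.0734) in frozen, -0.58 ± 0.06 (adjusted p = 3.5e-06) in FFPE 18 h and -0.27 ± 0.12 (adjusted p = 0.355) in FFPE 3-week tissue. Without control animal 3, whose value of 629 CPM stood above 360 to 391 CPM in the other frozen controls, the frozen Proc value was -0.44 ± 0.10 (adjusted p = 0.00937). The Proc furan effect in FFPE 3-week minus FFPE 18 h tissue was 0.31 ± 0.11, with an unadjusted p of 0.0117 and an adjusted p of 0.669; it was the 1 gene of 37 past an unadjusted 0.05 in any test of the difference.

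Serpinc1 encodes antithrombin, the main inhibitor of thrombin and factor Xa, and averaged 1337 ± 65.9 CPM with furan and 1565 ± 33.5 CPM in controls in FFPE 18 h tissue (SD, n = 4 each), a log2 fold change of -0.22 ± 0.06 (adjusted p = 0.0202). For Serpinc1, 6 of 8 omissions of 1 library kept the call (lost without control 4 or furan 43; adjusted p 0.00572 to 0.0574). Pros1 encodes protein S, the cofactor of activated protein C, with 64.1 ± 3.92 CPM with furan and 75.9 ± 3.79 CPM in controls and a log2 fold change of -0.23 ± 0.07 (adjusted p = 0.0244). For Pros1, 5 of 8 omissions of 1 library kept the call (lost without control 2, furan 43 or furan 44; adjusted p 0.012 to 0.0672). Serpind1 encodes heparin cofactor II. Serpind1 had 1081, 1003, 1039.5 and 1093 CPM in frozen pieces of furan livers, against 1183, 838, 992 and 1015 CPM in those of control livers. Serpind1 in FFPE 18 h pieces stood at 586, 657, 574 and 575 CPM with furan and at 641, 577, 577 and 542 CPM in controls. Serpind1 in FFPE 3-week pieces stood at 335, 343, 319 and 352 CPM with furan and at 444, 357, 369 and 380.1 CPM in controls. Serpind1 values of all furan livers lay below those of all control livers in FFPE 3-week pieces, and overlapped with them in frozen and FFPE 18 h pieces. Serpind1 log2 fold changes were 0.07 ± 0.12 (adjusted p = 0.799) in frozen, 0.04 ± 0.07 (adjusted p = 0.73) in FFPE 18 h and -0.18 ± 0.10 (adjusted p = 0.487) in FFPE 3-week tissue. Serpind1 in frozen tissue was -0.011 ± 0.10 without control animal 3 (adjusted p = 0.967). Proz, which encodes protein Z, the cofactor of an inhibitor of factor Xa, was -0.18 ± 0.10, -0.17 ± 0.07 and -0.22 ± 0.10 on the log2 scale in frozen, FFPE 18 h and FFPE 3-week tissue.

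F2, F7, F9, F10, Proc, Pros1 and Proz share a vitamin K-dependent modification, the gamma-carboxylation of a domain that binds membranes. This grouping was made after the values were seen and has no test. Of the 7, 6 fell in FFPE 18 h tissue, 1 in FFPE 3-week tissue and 0 in frozen tissue, and all 7 log2 fold changes were below 0 in each piece, from -0.66 to -0.16 in frozen tissue. In FFPE 18 h tissue the carboxylase Ggcx fell too, by 0.30 ± 0.07 on the log2 scale, as did the vitamin K epoxide reductase Vkorc1, by 0.24 ± 0.06, while its paralogue Vkorc1l1 rose by 0.36 ± 0.08 (adjusted p = 0.00521, 0.0144 and 0.00382).

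The 3 fibrinolysis genes were not called in any piece. Plg, which encodes the zymogen of plasmin, was -0.09 ± 0.10, -0.07 ± 0.06 and -0.14 ± 0.08 on the log2 scale in frozen, FFPE 18 h and FFPE 3-week tissue. Serpinf2, the plasmin inhibitor, was -0.21 ± 0.14, -0.06 ± 0.07 and -0.05 ± 0.10, and Cpb2, the carboxypeptidase that protects fibrin, was 0.01 ± 0.16, -0.01 ± 0.07 and -0.01 ± 0.11 in the same order.

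**Figure D3:**
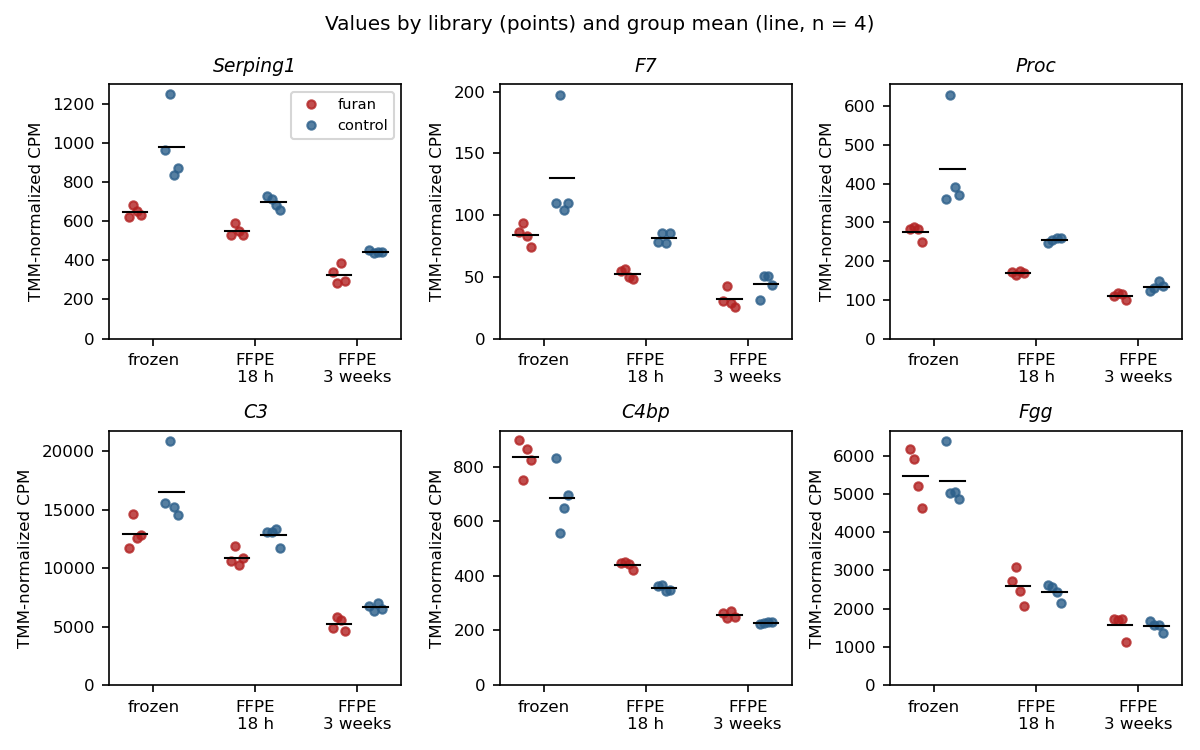
TMM-normalized CPM of 6 genes in each library (points) with the group mean (line, n = 4), furan in red left of control in blue, in frozen, FFPE 18 h and FFPE 3-week tissue. Furan values of Serping1 lie below all control values in each piece, C4bp lies above in FFPE 18 h tissue, Fgg overlaps, and the highest frozen control of F7, Proc and C3 is animal 3.

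In complement, C3, Cfb, C2, C1ra, both MASP proteases and the C1 inhibitor fell in FFPE 18 h tissue, and 0 of 5 terminal components were called. C3 is the component on which the 3 pathways meet. C3 had 11718, 14652, 12544 and 12859 CPM in frozen pieces of furan livers, against 15517, 20900.0, 15234 and 14502 CPM in those of control livers. C3 in FFPE 18 h pieces stood at 10577, 11883, 10264 and 10832 CPM with furan and at 13109, 13091, 13338 and 11752 CPM in controls. C3 in FFPE 3-week pieces stood at 4836, 5782, 5528 and 4629 CPM with furan and at 6776, 6341, 6978 and 6530.5 CPM in controls. C3 values of all furan livers lay below those of all control livers in FFPE 3-week pieces, and overlapped with them in frozen and FFPE 18 h pieces. C3 log2 fold changes were -0.35 ± 0.14 (adjusted p = 0.209) in frozen, -0.23 ± 0.07 (adjusted p = 0.0344) in FFPE 18 h and -0.34 ± 0.08 (adjusted p = 0.0104) in FFPE 3-week tissue. For C3 in FFPE 18 h tissue 3 of 8 omissions of 1 library kept the call (lost without control 2, control 3, control 4, furan 43 or furan 44; adjusted p 0.0117 to 0.1), and in FFPE 3-week tissue 6 of 8 omissions of 1 library kept the call (lost without control 4 or furan 41; adjusted p 0.00467 to 0.0544). Without control animal 3 the frozen C3 value was -0.22 ± 0.11 (adjusted p = 0.261).

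Cfb encodes factor B, the protease of the alternative pathway, and C2 its counterpart in the classical and lectin pathways; the genes are neighbours, and how their reads were assigned is not given in the sources used here. Cfb had 1244, 1229, 1300.3 and 1275 CPM in frozen pieces of furan livers, against 1697, 1742, 1591 and 1596 CPM in those of control livers. Cfb in FFPE 18 h pieces stood at 775, 758, 723 and 724 CPM with furan and at 971, 938, 944 and 890.5 CPM in controls. Cfb in FFPE 3-week pieces stood at 430.0, 422, 449.6 and 397 CPM with furan and at 579, 510.1, 587 and 531 CPM in controls. Cfb values of all furan livers lay below those of all control livers in the 3 kinds of piece. Cfb log2 fold changes were -0.39 ± 0.10 (adjusted p = 0.062) in frozen, -0.32 ± 0.06 (adjusted p = 0.00139) in FFPE 18 h and -0.36 ± 0.09 (adjusted p = 0.0299) in FFPE 3-week tissue. For Cfb in FFPE 3-week tissue 2 of 8 omissions of 1 library kept the call (lost without control 2, control 4, furan 41, furan 42, furan 43 or furan 44; adjusted p 0.0408 to 0.104). Without control animal 3 the frozen value was -0.37 ± 0.10 (adjusted p = 0.0262).

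C2 had 127, 115, 121 and 125 CPM in frozen pieces of furan livers, against 158, 185, 163 and 157 CPM in those of control livers. C2 in FFPE 18 h pieces stood at 81.6, 81.6, 84.4 and 84.9 CPM with furan and at 89.7, 105, 119 and 106 CPM in controls. C2 in FFPE 3-week pieces stood at 35.6, 49.2, 52.0 and 46.8 CPM with furan and at 60.6, 37.3, 68.3 and 84.3 CPM in controls. C2 values of all furan livers lay below those of all control livers in frozen and FFPE 18 h pieces, and overlapped with them in FFPE 3-week pieces. C2 log2 fold changes were -0.44 ± 0.10 (adjusted p = 0.042) in frozen, -0.32 ± 0.07 (adjusted p = 0.00609) in FFPE 18 h and -0.43 ± 0.20 (adjusted p = 0.38) in FFPE 3-week tissue. C2 in frozen tissue was -0.39 ± 0.08 without control animal 3 (adjusted p = 0.00959). The frozen C2 call was kept in 1 of 8 omissions of 1 library, the one without control animal 3, with adjusted p from 0.00959 to 0.145. C1ra encodes a C1r protease of the C1 complex, and its near-identical copy C1rb makes its counts uncertain. C1ra had 128, 128, 127 and 127 CPM in frozen pieces of furan livers, against 165, 191, 156 and 146 CPM in those of control livers. C1ra in FFPE 18 h pieces stood at 72.4, 84.3, 84.5 and 81.7 CPM with furan and at 95.0, 105, 102 and 92.7 CPM in controls. C1ra in FFPE 3-week pieces stood at 41.9, 39.97, 41.6 and 34.8 CPM with furan and at 61.8, 61.4, 55.6 and 52.5 CPM in controls. C1ra values of all furan livers lay below those of all control livers in the 3 kinds of piece. C1ra log2 fold changes were -0.36 ± 0.11 (adjusted p = 0.101) in frozen, -0.28 ± 0.07 (adjusted p = 0.00996) in FFPE 18 h and -0.53 ± 0.18 (adjusted p = 0.115) in FFPE 3-week tissue. C1ra in frozen tissue was -0.29 ± 0.08 without control animal 3 (adjusted p = 0.0471). Hc, which encodes C5 in mouse, was -0.06 ± 0.13, -0.02 ± 0.08 and -0.07 ± 0.09 on the log2 scale in frozen, FFPE 18 h and FFPE 3-week tissue and passed no test.

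In the lectin pathway the proteases fell in FFPE 18 h tissue and the mannose-binding lectins, which recognise sugars on microbes, were not called. Masp1 and Masp2 encode the proteases that the lectins carry. Masp1 had 117, 151, 133 and 126 CPM in frozen pieces of furan livers, against 169, 209, 156 and 158 CPM in those of control livers. Masp1 in FFPE 18 h pieces stood at 151, 158, 161 and 149.7 CPM with furan and at 203, 187, 187 and 185 CPM in controls. Masp1 in FFPE 3-week pieces stood at 84.4, 87.3, 102 and 93.6 CPM with furan and at 137, 117, 107 and 107 CPM in controls. Masp1 values of all furan livers lay below those of all control livers in the 3 kinds of piece. Masp1 log2 fold changes were -0.39 ± 0.13 (adjusted p = 0.135) in frozen, -0.29 ± 0.06 (adjusted p = 0.00263) in FFPE 18 h and -0.33 ± 0.13 (adjusted p = 0.218) in FFPE 3-week tissue. Masp1 in frozen tissue was -0.29 ± 0.10 without control animal 3 (adjusted p = 0.0823). Masp2 had 136, 127, 129 and 123 CPM in frozen pieces of furan livers, against 160.0, 159, 165 and 170.0 CPM in those of control livers. Masp2 in FFPE 18 h pieces stood at 107, 111, 110.2 and 106 CPM with furan and at 135, 140.3, 139.6 and 152 CPM in controls. Masp2 in FFPE 3-week pieces stood at 50.5, 49.996, 57.6 and 82.0 CPM with furan and at 69.0, 72.7, 68.1 and 103 CPM in controls. Masp2 values of all furan livers lay below those of all control livers in frozen and FFPE 18 h pieces, and overlapped with them in FFPE 3-week pieces. Masp2 log2 fold changes were -0.34 ± 0.09 (adjusted p = 0.0823) in frozen, -0.38 ± 0.06 (adjusted p = 0.000399) in FFPE 18 h and -0.36 ± 0.18 (adjusted p = 0.402) in FFPE 3-week tissue. Masp2 in frozen tissue was -0.36 ± 0.09 without control animal 3 (adjusted p = 0.0159).

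Mbl1 had 199, 218, 204 and 194 CPM in frozen pieces of furan livers, against 283, 370.5, 212 and 179.9 CPM in those of control livers. Mbl1 in FFPE 18 h pieces stood at 90.6, 99.2, 107 and 98.9 CPM with furan and at 141, 129, 106 and 90.1 CPM in controls. Mbl1 in FFPE 3-week pieces stood at 47.1, 68.8, 61.1 and 40.6 CPM with furan and at 66.3, 56.9, 63.8 and 53.8 CPM in controls. Mbl1 values of furan and control livers overlapped in every piece. Mbl1 log2 fold changes were -0.36 ± 0.19 (adjusted p = 0.35) in frozen, -0.23 ± 0.13 (adjusted p = 0.277) in FFPE 18 h and -0.13 ± 0.18 (adjusted p = 0.887) in FFPE 3-week tissue. Mbl1 in frozen tissue was -0.14 ± 0.13 without control animal 3 (adjusted p = 0.564). Mbl2 had 699.5, 668, 663 and 659.5 CPM in frozen pieces of furan livers, against 729, 629, 657 and 629 CPM in those of control livers. Mbl2 in FFPE 18 h pieces stood at 312, 348, 317 and 321 CPM with furan and at 332, 332, 331 and 293 CPM in controls. Mbl2 in FFPE 3-week pieces stood at 320.2, 359, 298 and 307 CPM with furan and at 374, 298, 318 and 305 CPM in controls. Mbl2 values of furan and control livers overlapped in every piece. Mbl2 log2 fold changes were 0.03 ± 0.10 (adjusted p = 0.919) in frozen, 0.02 ± 0.06 (adjusted p = 0.876) in FFPE 18 h and 0.00 ± 0.11 (adjusted p = 0.996) in FFPE 3-week tissue. Mbl2 in frozen tissue was 0.002 ± 0.10 without control animal 3 (adjusted p = 0.995). The Mbl2 change was close to 0 and its sign in fixed tissue turned under several settings.

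Of the 3 inhibitors, Serping1 fell, C4bp rose and Cfi was not called. Serping1 encodes the C1 inhibitor, a serpin that blocks C1r, C1s, the MASPs, factor XIIa and plasma kallikrein, and it was the 1 gene of 37 called in all 3 pieces. Serping1 had 623, 681, 649 and 633 CPM in frozen pieces of furan livers, against 964, 1249.7, 833 and 869.8 CPM in those of control livers. Serping1 in FFPE 18 h pieces stood at 531, 591, 549 and 530.1 CPM with furan and at 730.5, 715, 685 and 655 CPM in controls. Serping1 in FFPE 3-week pieces stood at 341, 283, 384 and 296 CPM with furan and at 451, 435, 444 and 441 CPM in controls. Serping1 values of all furan livers lay below those of all control livers in the 3 kinds of piece. Serping1 log2 fold changes were -0.60 ± 0.14 (adjusted p = 0.0421) in frozen, -0.33 ± 0.06 (adjusted p = 0.00178) in FFPE 18 h and -0.43 ± 0.10 (adjusted p = 0.017) in FFPE 3-week tissue. In frozen tissue the call was kept in 1 of 8 omissions of 1 library, the one without control animal 3 at -0.46 ± 0.10 (adjusted p = 0.00792), with adjusted p up to 0.152; in FFPE 18 h tissue it was kept in all 8. The fit of all 24 libraries did not call Serping1 in FFPE 18 h tissue. For Serping1 in FFPE 3-week tissue 5 of 8 omissions of 1 library kept the call (lost without control 2, furan 42 or furan 44; adjusted p 0.00975 to 0.0779). The Serping1 furan effect in FFPE 18 h minus frozen tissue was 0.28 ± 0.15 (adjusted p = 1).

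C4bp encodes the C4b-binding protein, a cofactor for the cleavage of C4b, and was the 1 gene of 37 that rose. Its promoter is shown for that reason, and none of the 4 motifs searched is in this window.
C4bp, chr1:130661619-130661868, minus strand: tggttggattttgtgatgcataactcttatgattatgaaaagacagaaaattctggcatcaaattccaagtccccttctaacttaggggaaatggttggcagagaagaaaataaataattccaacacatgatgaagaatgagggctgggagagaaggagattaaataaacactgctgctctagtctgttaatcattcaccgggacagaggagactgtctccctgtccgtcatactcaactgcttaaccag

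C4bp had 897, 751, 863 and 825 CPM in frozen pieces of furan livers, against 833, 558, 649.5 and 698 CPM in those of control livers. C4bp in FFPE 18 h pieces stood at 448, 450.3, 442 and 421 CPM with furan and at 364, 366, 346 and 349.5 CPM in controls. C4bp in FFPE 3-week pieces stood at 264, 244, 271 and 248 CPM with furan and at 223, 227, 232 and 231 CPM in controls. C4bp values of all furan livers lay above those of all control livers in FFPE 18 h and FFPE 3-week pieces, and overlapped with them in frozen pieces. C4bp log2 fold changes were 0.29 ± 0.13 (adjusted p = 0.279) in frozen, 0.31 ± 0.06 (adjusted p = 0.00121) in FFPE 18 h and 0.19 ± 0.10 (adjusted p = 0.489) in FFPE 3-week tissue. C4bp in frozen tissue was 0.20 ± 0.11 without control animal 3 (adjusted p = 0.306). All 8 omissions of 1 library kept the FFPE 18 h call of C4bp, at 0.29 to 0.32, but the fit of all 24 libraries did not call it. Cfi, which encodes the protease factor I that C4bp assists, was 0.10 ± 0.14, 0.02 ± 0.07 and 0.05 ± 0.11 on the log2 scale in frozen, FFPE 18 h and FFPE 3-week tissue.

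None of the 5 terminal components C6, C8a, C8b, C8g and C9 was called in any piece by edgeR or by DESeq2. Their median furan log2 fold change by edgeR was 0.01 in frozen, -0.02 in FFPE 18 h and -0.21 in FFPE 3-week tissue. C8g, the chain of C8 that belongs to the lipocalins, was called lower in FFPE 3-week tissue by the fit of all 24 libraries, and when furan animal 41 was left out of the FFPE 18 h or FFPE 3-week fit. C8g had 313, 266, 262 and 260.5 CPM in frozen pieces of furan livers, against 334, 280.3, 306 and 308 CPM in those of control livers. C8g in FFPE 18 h pieces stood at 187, 159, 142 and 151 CPM with furan and at 185, 187, 184 and 178 CPM in controls. C8g in FFPE 3-week pieces stood at 124, 86.3, 72.3 and 73.1 CPM with furan and at 116, 108, 136 and 127 CPM in controls. C8g values of furan and control livers overlapped in every piece. C8g log2 fold changes were -0.15 ± 0.11 (adjusted p = 0.482) in frozen, -0.19 ± 0.07 (adjusted p = 0.0897) in FFPE 18 h and -0.44 ± 0.15 (adjusted p = 0.138) in FFPE 3-week tissue. C8g in frozen tissue was -0.20 ± 0.10 without control animal 3 (adjusted p = 0.248).

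C8a and C8b varied widely among the animals of each group. C9 varied less with furan: its ratio of highest to lowest value was 1.12 in frozen furan livers and 1.68 in frozen controls. C8a and C8b encode chains of C8 and are neighbours on chromosome 4, and C9 forms the pore. C8a had 648, 859.8, 792 and 591 CPM in frozen pieces of furan livers, against 1054, 888, 616 and 596 CPM in those of control livers. C8a in FFPE 18 h pieces stood at 439, 673, 616 and 422 CPM with furan and at 734, 601, 443 and 443 CPM in controls. C8a in FFPE 3-week pieces stood at 362, 547, 517 and 331 CPM with furan and at 674, 528, 395 and 429 CPM in controls. Animals 42 and 43 were the highest furan livers and animals 2 and 3 the highest control livers in every piece for C8a.

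C8b had 299, 359, 366 and 264 CPM in frozen pieces of furan livers, against 434, 273, 259 and 246 CPM in those of control livers. C8b in FFPE 18 h pieces stood at 148, 209, 201 and 135 CPM with furan and at 222, 191, 129.7 and 128 CPM in controls. C8b in FFPE 3-week pieces stood at 96.9, 143, 153 and 79.6 CPM with furan and at 137, 133, 87.3 and 91.5 CPM in controls. The same 4 animals stood highest for C8b in every piece. C9 had 416, 444, 464 and 439.9 CPM in frozen pieces of furan livers, against 578, 461, 343 and 369 CPM in those of control livers. C9 in FFPE 18 h pieces stood at 239.6, 310.4, 276 and 242 CPM with furan and at 324, 308, 239 and 217 CPM in controls. C9 in FFPE 3-week pieces stood at 198, 205, 238 and 167 CPM with furan and at 303, 267, 173 and 198 CPM in controls. By DESeq2, frozen furan log2 fold changes were -0.13 ± 0.21 for C8a, 0.08 ± 0.20 for C8b and 0.01 ± 0.17 for C9. By edgeR without control animal 3 they were -0.06 ± 0.22, 0.04 ± 0.22 and 0.04 ± 0.15 (adjusted p = 0.918, 0.942 and 0.922). The same 4 animals also stood highest for C9 in every piece. Over the 37 genes, 7 had the same pair of furan animals on top in all 3 pieces (42 and 43 for C6, C8a, C8b, C9 and Mbl1, and 41 and 42 for F7 and C8g), 3 had the same pair of control animals, and C8a, C8b and C9 were the 3 with both. This is a description of these 8 animals, with pieces of 1 liver counted as 1 animal. The order of animals was not counted over all genes, so it is not shown to be unusual among liver genes. The promoters of C8a and C8b are shown for this shared order, with capitals as above.
C8a, chr4:104876399-104876648, minus strand: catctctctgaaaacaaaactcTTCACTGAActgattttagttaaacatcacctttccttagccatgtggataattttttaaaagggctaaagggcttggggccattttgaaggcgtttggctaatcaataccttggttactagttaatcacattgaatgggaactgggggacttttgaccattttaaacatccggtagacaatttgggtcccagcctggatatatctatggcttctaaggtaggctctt
C8b, chr4:104766067-104766316, plus strand: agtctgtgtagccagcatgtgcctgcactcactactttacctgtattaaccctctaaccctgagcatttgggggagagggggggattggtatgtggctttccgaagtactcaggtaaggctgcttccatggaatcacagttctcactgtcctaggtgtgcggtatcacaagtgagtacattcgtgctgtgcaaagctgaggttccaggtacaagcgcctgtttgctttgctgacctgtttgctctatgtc

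The C8a promoter holds 1 TTCNNNGAA match, in capitals, and none of the 4 motifs is in the C8b window. C8g did not follow the order of C8a and C8b, and C6 values were low, with 35.1 to 44.9 CPM in frozen furan livers and 30.7 to 46.0 CPM in frozen controls.

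**Figure D4:**
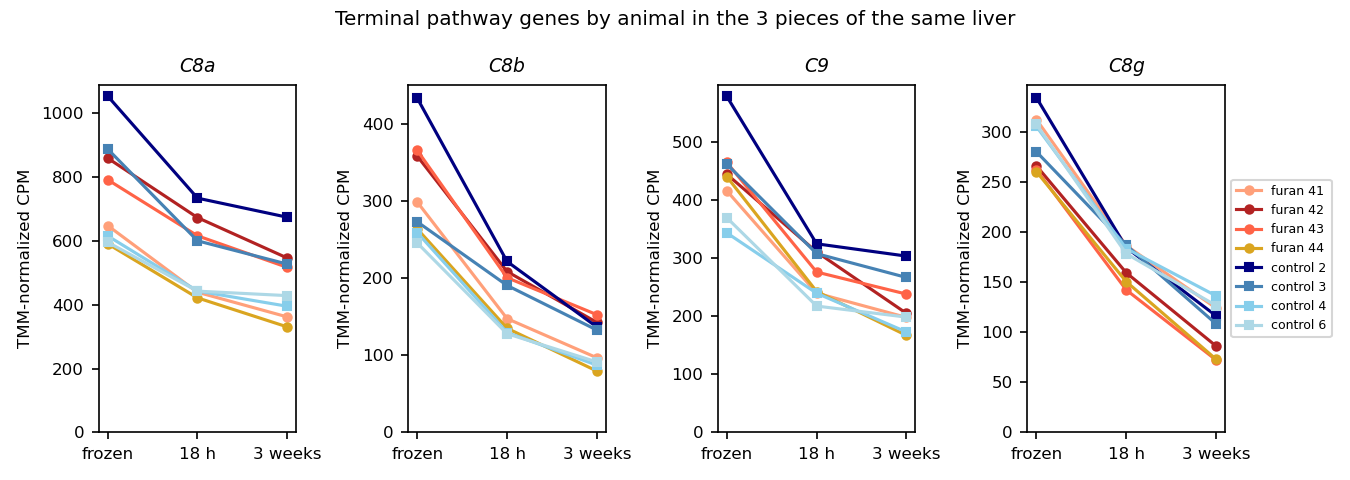
TMM-normalized CPM of C8a, C8b, C9 and C8g in the 3 pieces of each liver, 1 line per animal, furan in reds and yellow with circles and control in blues with squares. For C8a, C8b and C9 the lines of furan animals 42 and 43 and control animals 2 and 3 lie above the other animals of their group in each piece.

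The furan effect was not shown to differ between pieces for any of the 37 genes. The tests of the difference called 0 of 14843, 14253 and 14414 genes, which is 0% in each, by edgeR. An unadjusted 0.05 was passed by 0, 0 and 1 of the 37 genes, beside 239, 585 and 766 of all genes tested. DESeq2 called 0 of the 37 in each, beside 0, 9 and 26 of all genes. The differences with the smallest p, beside those of Proc, F12 and Serping1, were 0.13 ± 0.12 (adjusted p = 1) for C2 between FFPE 18 h and frozen tissue, -0.26 ± 0.15 (adjusted p = 1) for Serpind1 and -0.29 ± 0.20 (adjusted p = 1) for C8g between FFPE 3-week and frozen tissue, and -0.23 ± 0.11 (adjusted p = 0.938) for Serpind1 and -0.26 ± 0.15 (adjusted p = 1) for C1ra between the 2 fixations.

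Other genes of the same systems were listed with earlier results known. Of 28 other coagulation genes, 0 of 25 tested were called in frozen tissue by edgeR (7 at an unadjusted p below 0.05, and 3, all lower, by DESeq2), 4 of 24 rose and 4 fell in FFPE 18 h tissue, and 1 of 22 rose in FFPE 3-week tissue. In FFPE 18 h tissue these were, beside the vitamin K genes, the factor XIII A subunit gene F13a1 (1.77 ± 0.45), and Lman1 (0.24 ± 0.06) and Mcfd2 (0.20 ± 0.06), which encode the receptor that carries factors V and VIII out of the endoplasmic reticulum, as higher, and Hrg (-0.23 ± 0.07) and Habp2 (-0.22 ± 0.07) as lower. S100a10, a plasminogen receptor subunit, rose in FFPE 3-week tissue (0.85 ± 0.20). Of 29 other complement genes, 0 of 28 were called in frozen tissue by edgeR (5 at an unadjusted p below 0.05, and 3, all lower, by DESeq2), 6 of 28 fell in FFPE 18 h tissue and 1 of 27 fell in FFPE 3-week tissue. The 6 were C1rl (-0.38 ± 0.06), the membrane inhibitor Cd59a (-0.45 ± 0.08), C4b (-0.38 ± 0.07), the carboxypeptidase N chains Cpn1 (-0.31 ± 0.06) and Cpn2 (-0.36 ± 0.07), and the ficolin Fcna (-0.33 ± 0.10), and C4b fell in FFPE 3-week tissue as well (-0.41 ± 0.11). C4b and Cd59a have close copies, C4a and Cd59b, so their counts are uncertain. Median log2 fold changes of the other complement genes were -0.30, -0.29 and -0.21 in frozen, FFPE 18 h and FFPE 3-week tissue, and of the other coagulation genes 0.03, 0.03 and 0.04.

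Among 21 regulators of liver genes, Nr1i3, the xenobiotic receptor CAR, fell in all 3 pieces, at -0.70 ± 0.15, -0.72 ± 0.13 and -0.80 ± 0.18 in frozen, FFPE 18 h and FFPE 3-week tissue. Nfe2l2, the oxidative stress factor NRF2, rose in frozen tissue at 0.61 ± 0.14 and in FFPE 18 h tissue at 0.46 ± 0.08. In FFPE 18 h tissue Stat3 (0.42 ± 0.08), Hnf4a (0.30 ± 0.06) and Esr1 (0.39 ± 0.09) rose and Cebpa (-0.26 ± 0.06) fell. Markers of sinusoidal endothelium and of Kupffer cells had negative median log2 fold changes with furan too. In frozen, FFPE 18 h and FFPE 3-week tissue these were -0.32, -0.26 and -0.13 for endothelium. For Kupffer cells they were -0.32, -0.32 and -0.36 in that order. The summed level of the endothelial markers was 717 to 751 CPM in furan and 909 to 968 CPM in control frozen pieces. It was 701 to 750.1 and 872 to 916 CPM in FFPE 18 h pieces, and 660.0 to 744 and 788 to 843 CPM in FFPE 3-week pieces. Of these 12 markers 1, 7 and 0 were called lower and none was at 0. The 12 Kupffer cell markers had sums of 524 to 578 CPM in furan and 522 to 1075 CPM in control frozen pieces, of 292 to 354 CPM in furan and 338 to 633 CPM in control FFPE 18 h pieces, and of 293 to 349.8 CPM in furan and 285 to 582 CPM in control FFPE 3-week pieces, with 0 of 12 called and none at 0. The highest control sum was that of animal 4 in each piece. The other controls had 522 to 630, 338 to 364 and 285 to 338 CPM in frozen, FFPE 18 h and FFPE 3-week pieces. The part of animal 4 in the Kupffer cell medians was not tested. C1qa and Vsig4 are in both the Kupffer cell list and the list of other complement genes. Hepatocyte markers were called lower for 0, 3 and 1 of 12. Of the stellate, bile duct, lymphocyte, neutrophil, platelet and erythroid markers that were tested, 1 was called. It was the collagen gene Col3a1, higher in FFPE 18 h tissue at 0.31 ± 0.09. Many were not tested. In frozen, FFPE 18 h and FFPE 3-week tissue, 2, 0 and 0 of 6 neutrophil markers were tested. Likewise 3, 2 and 3 of 8 platelet and 2, 2 and 1 of 6 erythroid markers were tested. In FFPE 3-week tissue 4 of 8 bile duct and 5 of 10 lymphocyte markers were. Values were 0 for 4 of 6 erythroid markers in each piece and for 4 of 8 platelet markers in FFPE 3-week tissue. The part of other cell types in the furan results was not tested. The furan log2 fold change also moved with base composition across genes. Its correlation with GC content over the 37 genes was -0.49 in frozen, -0.46 in FFPE 18 h and -0.29 in FFPE 3-week tissue (Pearson), beside -0.24, -0.13 and -0.02 over the 14001, 14075 and 12876 tested genes with known sequence; genes are not independent replicates, they share the libraries, and the part of GC content was not tested.

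Levels were lower in fixed than in frozen pieces for most of the 37 genes with TMM scaling; with total counts F11, Proz, Plg, C3 and Masp2 turned positive in FFPE 18 h and F5, F9 and Proz in FFPE 3-week over frozen tissue. Against frozen tissue, 20 of 21 coagulation and 15 of 16 complement genes were lower in FFPE 18 h tissue and Masp1 was higher, where 53.9% of all genes were called, 27.3% as lower and 26.6% as higher (edgeR, 8 against 8 libraries). In FFPE 3-week against frozen tissue all 21 coagulation and 15 of 16 complement genes were lower, where 48.8% were called, 25.8% lower and 23% higher. In FFPE 3-week against FFPE 18 h tissue, 18 coagulation and 12 complement genes were lower and F9 was higher, where 32.4% were called, 17.5% lower and 14.9% higher. Median log2 fold changes of FFPE 18 h over frozen tissue were -0.72 for coagulation and -0.70 for complement genes, those of FFPE 3-week over frozen tissue -1.34 and -1.28, and those of FFPE 3-week over FFPE 18 h tissue -0.63 and -0.70, beside 0.01, -0.02 and -0.05 over all genes. The 12 hepatocyte markers had medians of -0.78, -1.33 and -0.55 in the same order. Values were lower in all 8 animals for 34, 35 and 33 of the 37 genes in these comparisons, which share libraries. That count was not made over all genes, so it does not show a change particular to the 37. Of the 12 hepatocyte markers, 11, 12 and 11 were called lower in the same order.

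In FFPE 3-week against frozen tissue Mbl1, Kng1, Fgb and Fgg had the largest falls of the 37. Mbl1 had a lowest, median and highest value of 179.9, 208 and 370.5 CPM in the 8 frozen pieces, 90.1, 103 and 141 CPM in FFPE 18 h pieces and 40.6, 59.0 and 68.8 CPM in FFPE 3-week pieces. Kng1 had a lowest, median and highest value of 1766, 2683 and 3164 CPM in the 8 frozen pieces, 1230.1, 1301 and 1516 CPM in FFPE 18 h pieces and 550.2, 682 and 761 CPM in FFPE 3-week pieces. Mbl1 log2 fold changes were -1.11 ± 0.12 (adjusted p = 2.86e-07) for FFPE 18 h over frozen and -1.996 ± 0.13 (adjusted p = 2.6e-12) for FFPE 3 weeks over frozen, and those of Kng1 were -0.98 ± 0.09 (adjusted p = 1.66e-08) and -1.94 ± 0.09 (adjusted p = 8.19e-15); the libraries of fixed and frozen pieces did not overlap for either gene. Fgb had 4892, 6216 and 7578 CPM in frozen, 2151, 2944 and 3271 CPM in FFPE 18 h and 1065, 1719.8 and 2054 CPM in FFPE 3-week pieces, and log2 fold changes of -1.12 ± 0.09 and -1.89 ± 0.10 over frozen tissue; Fgg was at -1.11 ± 0.09 and -1.78 ± 0.09. C3 was at -0.31 ± 0.08 for FFPE 18 h over frozen and at -0.997 ± 0.05 for FFPE 3 weeks over FFPE 18 h, and Mbl2 was at -1.05 ± 0.06 and 0.01 ± 0.06. F5 and Masp1 were the exceptions at 18 h, with 0.12 ± 0.06 (adjusted p = 0.105) and 0.18 ± 0.07 (adjusted p = 0.0322). The Masp1 call was kept in 2 of 8 omissions of 1 animal (lost without control 2, 4 or 6 or furan 41, 43 or 44; adjusted p 0.002 to 0.101) and was lost with no low-count filter (adjusted p = 0.0591). Omission of 1 animal also lost the 18 h calls of Plg (furan 43 or 44), C6 (control 2) and C8a (control 3), and the call of C8b between the fixations (control 3 or furan 41). With the animal as a block, where 57.4% of all genes were called, F5 was 0.12 ± 0.05 (adjusted p = 0.0352) and was called higher. The block, with 47.1% and 35.8% of all genes called in the 3-week comparisons with frozen and FFPE 18 h tissue, also called C6 lower in FFPE 3-week against frozen tissue, at -0.71 ± 0.20 with an adjusted p of 0.00612, and Proz, C8a and C9 lower in FFPE 3-week against FFPE 18 h tissue, the C8a value being -0.20 ± 0.04 with the block (adjusted p = 1.42e-05) and -0.20 ± 0.17 without it (adjusted p = 0.426).

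These directions are relative to the other genes of each library. TMM factors were 0.786 to 0.871 in frozen, 1.03 to 1.10 in FFPE 18 h and 1.09 to 1.20 in FFPE 3-week libraries. With total counts in place of TMM the median of all genes moved to 0.34 and 0.40 for FFPE 18 h and FFPE 3-week over frozen tissue; then 27 of the 37 genes were lower and 4 higher (F5, Proz, Plg and Masp1) in FFPE 18 h tissue, beside 10.5% and 48.5% of all genes, and 31 were lower and 0 higher in FFPE 3-week tissue, beside 13% and 39.6%. Longer transcripts had smaller falls in FFPE 18 h against frozen tissue, with a correlation of log2 exon length and log2 fold change of 0.54 over the 37 genes (Pearson; Spearman 0.36) and 0.15 (Spearman 0.34) over all genes. In FFPE 3-week against FFPE 18 h tissue the correlation with GC content was -0.48 over the 37 genes and -0.24 over all genes. These are correlations across genes that share the same libraries, and the part of length and GC content was not tested.

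**Figure D5:**
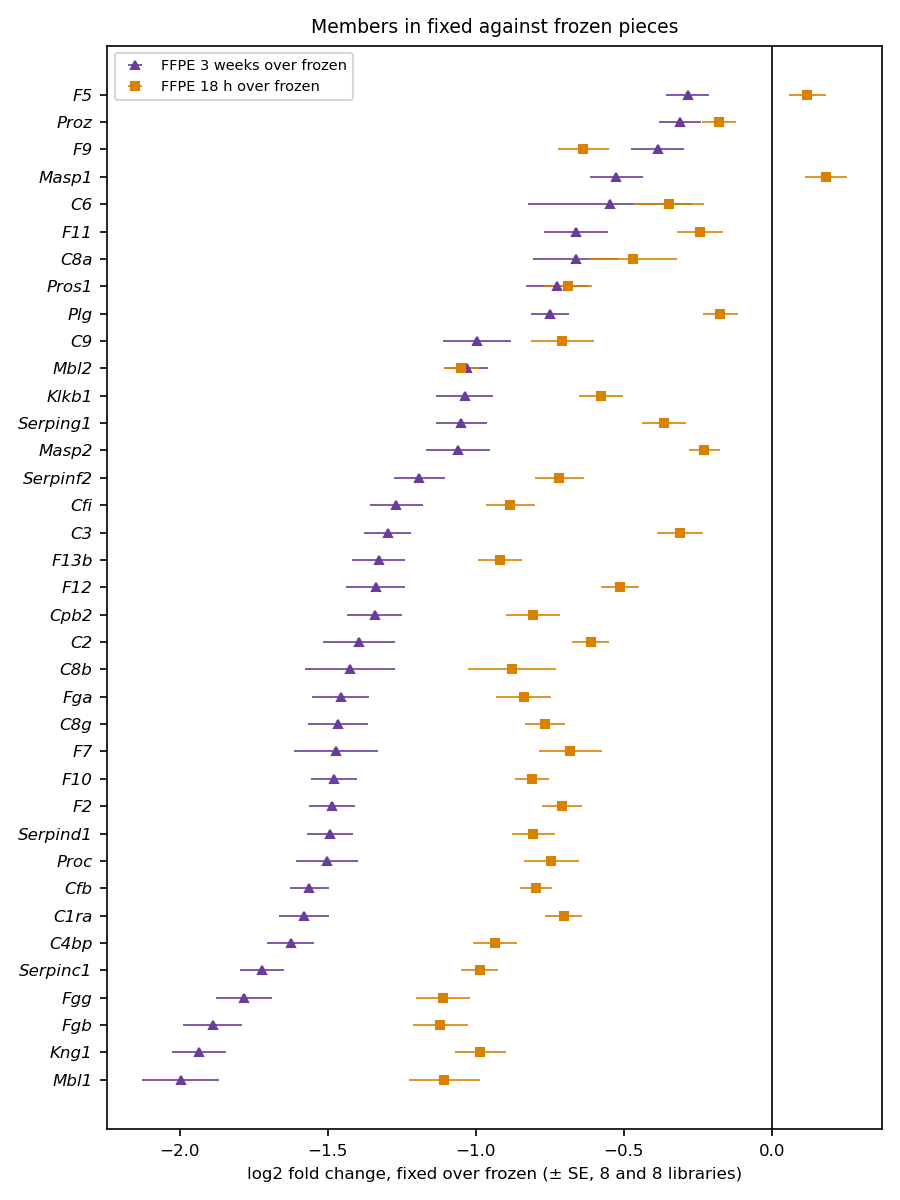
Log2 fold change with standard error of FFPE 3-week (triangles) and FFPE 18 h (squares) over frozen tissue, 8 against 8 libraries, for each of the 37 genes, ordered by the 3-week value. All triangles lie left of 0, from -1.996 for Mbl1 to -0.28 for F5, and F5 and Masp1 are the squares right of 0; with total counts in place of TMM, F11, Proz, Plg, C3 and Masp2 turned positive at 18 h and F5, F9 and Proz at 3 weeks.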

How the data were processed

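The deposited table held raw counts per gene symbol, 1 column per library, for 24 libraries, and no normalization by the authors was found in its values. CASAVA 1.8.2, STAR 2.3.0, featureCounts 1.4.4 and the genome build mm9 are listed in the submitters' processing notes. The gene models, the use of strand and the treatment of reads with several matches are not given in the sources used here. The replicates are separate animals, per the labels.

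Tests were run with edgeR 4.0.16 under R 4.3.3 (TMM, filterByExpr, robust quasi-likelihood test, two-sided, Benjamini-Hochberg adjustment over all genes tested). A gene was called at an adjusted p below 0.05. Each furan comparison was fitted on the 8 libraries of 1 kind of piece. Kinds of piece were compared as means over both treatments, and the furan effect between them as an interaction. Errors of log2 fold changes are standard errors derived from the F statistic. The furan comparisons and that of FFPE 18 h with frozen tissue were also run on simulated counts without shared animals. Their outcome is not given here, and the other comparisons were not simulated. Exon lengths and GC content came from a GRCm38 annotation for 23632 of 24015 symbols, 944 of them through a synonym, and promoter sequences from RefSeq (GRCm38.p6), so no coordinate is on the authors' build.

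The 38 genes and the other lists were chosen with earlier results of these data known. Genes described by library are the 14 with the smallest p among those called with furan, the 3 most abundant of each cascade, the 3 largest falls and rises in each comparison of pieces whose libraries did not overlap, and the 3 with the smallest p in each test of the difference. C8a, C8b and C9 were added after their values were seen. From other lists, called genes are given. Some items are not reported here.

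The 3 pieces share a liver, per the labels' protocol, so animal numbers pair the pieces. Same-animal correlations of deviations from group means were -0.005 to 0.25. Between FFPE 18 h and frozen pieces, control animal 3 had 0.028 with itself and up to 0.037 with another control. Between the fixations, furan animal 42 had -0.005 with itself and up to 0.107 with another furan animal. Furan animal 44 had 0.010 and up to 0.015 there. In all other cases the same-animal value was the highest, so these values do not show the pairing for each animal. Alternatives were DESeq2 1.42.0 size factors and its test, no low-count filter, 1 fit of all 24 libraries, thinning to 5560002 counts per library, the animal as a block, and leaving out each library. Total counts without scaling factors were added after the data were seen.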

Additional observations from a re-analysis of the deposited data

Results flagged for a closer look

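Of 228 groups of 4 libraries (each gene in each group, Hc included), 20 had 1 library far from the other 3 by Dixon's test, where chance gives about 1 in 20. All values are TMM-normalized CPM. Among furan frozen libraries the values that stood apart were Proc in animal 44 (249, below 283 to 288) and C8g in animal 41 (313, above 260.5 to 266). Among control frozen libraries the values that stood apart were F2 in animal 3 (2694, above 2015 to 2033), F7 in animal 3 (197, above 105 to 110.0), Fga in animal 2 (8355, above 6432 to 6499.9), Fgg in animal 2 (6386, above 4877 to 5044), Proc in animal 3 (629, above 360.3 to 391), C3 in animal 3 (20900.0, above 14502 to 15517) and C8b in animal 2 (434, above 246 to 273). Among furan FFPE 18 h libraries the values that stood apart were Serpinc1 in animal 41 (1436, above 1302 to 1306), Serpind1 in animal 42 (657, above 574 to 586), Serpinf2 in animal 44 (579, below 684 to 698) and Pros1 in animal 42 (69.9, above 61.3 to 62.7). Among control FFPE 18 h libraries the values that stood apart were C3 in animal 6 (11752, below 13091 to 13338), Mbl2 in animal 6 (293, below 331 to 332) and Masp1 in animal 2 (203, above 185 to 187). Among furan FFPE 3-week libraries the values that stood apart were F9 in animal 41 (205, below 249.6 to 256), Fgb in animal 44 (1065, below 1667 to 1754) and Fgg in animal 44 (1113, below 1702 to 1720.2). Among control FFPE 3-week libraries it was Masp2 in animal 6 (103, above 68.1 to 72.7).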

How the results depend on the processing

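With furan in frozen tissue, coagulation genes called were 4 with the DESeq2 test and 4 in the fit of all 24 libraries, against 0, and complement genes were 5 with DESeq2, 5 in the 24-library fit, 1 with no low-count filter, 0 with total counts and 0 after thinning, against 2. In FFPE 18 h tissue coagulation calls were 3 in the 24-library fit and 7 after thinning, against 11, and complement calls were 1 in the 24-library fit, against 8. In FFPE 3-week tissue the 24-library fit called 4 coagulation and 6 complement genes, against 2 and 3. Leaving out 1 library at a time gave 0 to 6 coagulation and 0 to 5 complement calls in frozen, 8 to 12 and 7 to 9 in FFPE 18 h, and 1 to 2 and 1 to 3 in FFPE 3-week tissue. It gave 34 to 36 calls for FFPE 18 h over frozen, 36 to 37 for FFPE 3 weeks over frozen, 30 to 33 between the fixations, and 0 in each test of the difference. For furan, shares of all genes called lower stand above for DESeq2 in frozen tissue, the 24-library fit and the frozen fit without control animal 3. They are not given for the other settings, so those counts do not show a change particular to these genes. The cause of the changes in calls was not tested, apart from the fewer counts that thinning leaves.

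The sign of Mbl2 in FFPE 3-week tissue, 0.00 on the log2 scale, turned to -0.00193 with DESeq2 size factors, -0.00252 with the DESeq2 test, -0.014 in the 24-library fit and -0.034 after thinning. When 1 library was left out, Mbl2 ran from -0.032 to 0.030 in FFPE 18 h and from -0.060 to 0.078 in FFPE 3-week tissue, and Fgg ran from -0.019 to 0.14 in frozen, -0.0092 to 0.18 in FFPE 18 h and -0.016 to 0.17 in FFPE 3-week tissue. None of these values passed the test. Of the other values of named genes, 332 kept their direction and their side of the threshold under settings that keep all libraries, 27 no longer passed and 3 newly passed.

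With the animal as a replicate block, calls were 37 for FFPE 18 h over frozen, 37 for FFPE 3 weeks over frozen and 34 between the fixations, against 36, 36 and 31, and 0 in each test of the difference. The calls it changed were those of F5, C6, Proz, C8a and C9, and it changed no other call. The median of all genes under the block was -0.17 for FFPE 3 weeks over frozen and -0.18 between the fixations, and with no low-count filter it was -0.13 and -0.17. No paired analysis was possible for furan against control because the treatments share no animal. Depth was lowest in FFPE 3-week libraries, and C6, the lowest gene per kb, had the widest standard error there, 0.55 on the log2 scale for furan.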
